A study of Mus musculus with 6 samples.

Results

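Carboxylesterase genes of families 1 and 2 were examined in RNA from the small intestinal mucosa of mice in which Rbm47 was targeted in the intestine. The members were a given list of 8 genes, Ces1d, Ces1e, Ces1f and Ces1g of family 1 and Ces2a, Ces2b, Ces2c and Ces2e of family 2, out of 38561 genes in the count tables, and 12 further Ces genes were set beside them. RBM47 is an RNA-binding protein, and the comparison asked which transcripts differ in level when the epithelium is meant to lack it. Poly(A) RNA was sequenced from 3 pools labelled Rbm47_IKO and 3 pools labelled wt. The Rbm47_IKO mice carried floxed Rbm47 alleles and a constitutive Cre transgene under the villin promoter, which is active in epithelium of the small and large intestine, so that muscle, immune and stromal cells keep the gene. The controls were C57BL/6J mice according to the labels, whereas the study's methods name floxed mice, Rbm47 fl/fl, as controls. The labels name no treatment of either genotype. Each pool combined RNA of 3 mice of both sexes aged 8 to 12 weeks, so that each value averages over mice. These are the labels' details. The study's results section names jejunal mucosa, and its methods give slightly wider ranges for the number of mice per pool and their age.

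Carboxylesterases are serine hydrolases of the lumen of the endoplasmic reticulum that cleave ester, amide and thioester bonds. They activate or inactivate ester drugs and other xenobiotics, and several of them hydrolyse acylglycerols, so that in enterocytes they bear on both first-pass metabolism and the handling of absorbed fat. Family 1 is best known from liver and adipose tissue, and family 2 is the main carboxylesterase family of the small intestine. The mouse genome holds many copies of each family, side by side on chromosome 8.

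The sequences that define the family were read from the GRCm38 genome with the GENCODE M21 gene models, and are shown first because they show how alike the members are that the counts have to tell apart. The 4 family 1 members lie on the minus strand of chromosome 8 (Ces1d at 93166068 to 93197838, Ces1e at 93201218 to 93229619, Ces1f at 93256236 to 93279747, Ces1g at 93302369 to 93337308), and the 4 family 2 members lie on the plus strand (Ces2a at 104734003 to 104741634, Ces2b at 104831572 to 104840093, Ces2c at 104847068 to 104854483, Ces2e at 104926260 to 104934672). Each window below is 57 coding bases of exon 5, of 14 exons in family 1 and 12 in family 2, and the capitals mark the codon of the active-site serine.
Ces1d: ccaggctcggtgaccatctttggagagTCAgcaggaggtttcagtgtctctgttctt
Ces1e: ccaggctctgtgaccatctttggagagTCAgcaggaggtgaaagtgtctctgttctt
Ces1f: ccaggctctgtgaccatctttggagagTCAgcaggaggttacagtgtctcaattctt
Ces1g: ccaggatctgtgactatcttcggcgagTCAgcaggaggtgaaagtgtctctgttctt
Ces2a: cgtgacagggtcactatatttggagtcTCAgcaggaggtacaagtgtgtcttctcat
Ces2b: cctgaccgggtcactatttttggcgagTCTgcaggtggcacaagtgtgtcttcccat
Ces2c: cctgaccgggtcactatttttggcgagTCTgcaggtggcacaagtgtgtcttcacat
Ces2e: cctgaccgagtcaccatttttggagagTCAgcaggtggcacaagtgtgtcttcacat

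The serine codon was TCT in Ces2b and Ces2c and TCA in the other members, and the residue before the serine was valine in Ces2a and glutamate in the other 7. Ces2b and Ces2c differed at 1 of the 57 bases, and Ces2a differed from each other family 2 member at 10. Over the aligned coding sequence, members of the same family were 74.6% to 92.1% identical, with Ces2b and Ces2c the closest pair, and members of different families were 60.9% to 63.6% identical.

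The last coding bases are shown for the 3 members of the 4 called higher with the largest fold changes and for Ces2e, the most abundant member, with the last 4 codons in capitals and the stop codon in lower case.
Ces1f: CACAATGAGCTGtga
Ces2a: CATGCAGAGCTGtag
Ces2b: CACACGGAGCTTtag
Ces2e: CACAAAGAGTTGtag
In all 8 members these 4 codons encoded histidine, a variable residue, glutamate and leucine, the kind of signal that retrieves proteins to the endoplasmic reticulum. The variable residue was asparagine in Ces1f, alanine in Ces2a, threonine in Ces2b and lysine in Ces2e.

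The likeness of the members bears on their counts. Of all 50-base stretches in the transcripts of Ces2c, 42.22% also occurred in another gene, chiefly the pseudogene Ces2d-ps. The share was 22.24% for Ces2a, chiefly in the pseudogene Gm7208, 9.79% for Ces2b, and 1.28% to 3.36% for Ces1d, Ces1e, Ces1f, Ces1g and Ces2e. Treatment of reads that map to several places was not given in the sources used here. The levels of Ces2c, Ces2a and Ces2b are therefore uncertain. These shares do not measure by how much, which also depends on the level of the gene that shares the stretch. Ces2b shares stretches with Ces2c, which was far more abundant in every pool, and about as many with each of Ces2d-ps and Gm8798. No other annotated gene overlapped a member.

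Total counts ranged from 31560320 to 38951830 per pool. CPM values, counts scaled to a common library total, use the library sizes of the TMM method of edgeR, and RPKM values are that CPM divided by the exon length of the gene in kilobases. Rbm47 itself had 602.7, 624.6 and 619.8 CPM in the pools labelled Rbm47_IKO and 459.8, 449.9 and 472.1 CPM in the wt pools, a log2 fold change of 0.42 (SE 0.10, edgeR adjusted p = 0.0751). DESeq2 called it higher (adjusted p = 0.00105), and so did edgeR without TMM scaling (adjusted p = 0.0473). The targeted gene was therefore not lower in the pools labelled Rbm47_IKO, and directions below are those between the labelled groups. Its count covers the whole gene, and counts per exon were not analysed here. The 11 enterocyte genes summed to 54714 to 60752 CPM in all 6 pools, with log2 fold changes from -1.01 (Apoa4) to 0.52 (Anpep), none called by edgeR and 4 by DESeq2. Of the defining colon markers, Car1 and Hoxd13 were at 0 in every pool, and 6 hepatocyte genes summed to at most 7.68 CPM. Smooth muscle genes summed to 3302 CPM in Rbm47_IKO pool 3 and 2803 CPM in wt pool 2, against 90.7 to 585.7 CPM in the other 4 pools, and results are given without these 2 pools as well. Pancreatic acinar genes summed to 20.4 CPM in Rbm47_IKO pool 3, against 0.290 to 1.03 CPM in the other pools. Of 75 marker genes in 12 tissue and cell type lists, 62 were tested and none passed the edgeR threshold, while 14 had an unadjusted edgeR p under 0.05, against 16.8% of all genes tested, and DESeq2 called 11, against 7.57%.

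All 8 carboxylesterases were above 0 on the log2 fold change scale, Rbm47_IKO over wt, and 4 of them, Ces1e, Ces1f, Ces2a and Ces2b, rose by the edgeR test (adjusted p of at most 0.05). The median log2 fold change of the members was 1.22, and that of all 16425 genes tested was -0.01. Of all genes tested, 1.45% were called higher, 1.25% lower and 2.70% in either direction. The members were chosen with earlier results of these data known, so shares over all genes stand beside them as a description only. In 7 of the 8 members every pool labelled Rbm47_IKO lay above every wt pool, an arrangement found in 11.7% of all genes tested, and Ces1d was the exception. DESeq2 called 6 members, adding Ces1g and Ces2c, and called 7.57% of all genes. Without Rbm47_IKO pool 2, and likewise without wt pool 3, edgeR called 0 members, although 6 had an unadjusted edgeR p under 0.05 in each fit. Over all genes, these fits called 0 of 17001 and 11 of 16942, and 1729 and 2203 had an unadjusted edgeR p under 0.05. All 8 members had passed the filter on low counts. Because mucosa was sequenced in bulk, a change in RNA per cell and a change in the share of the cells that carry a transcript cannot be told apart.

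**Figure D1:**
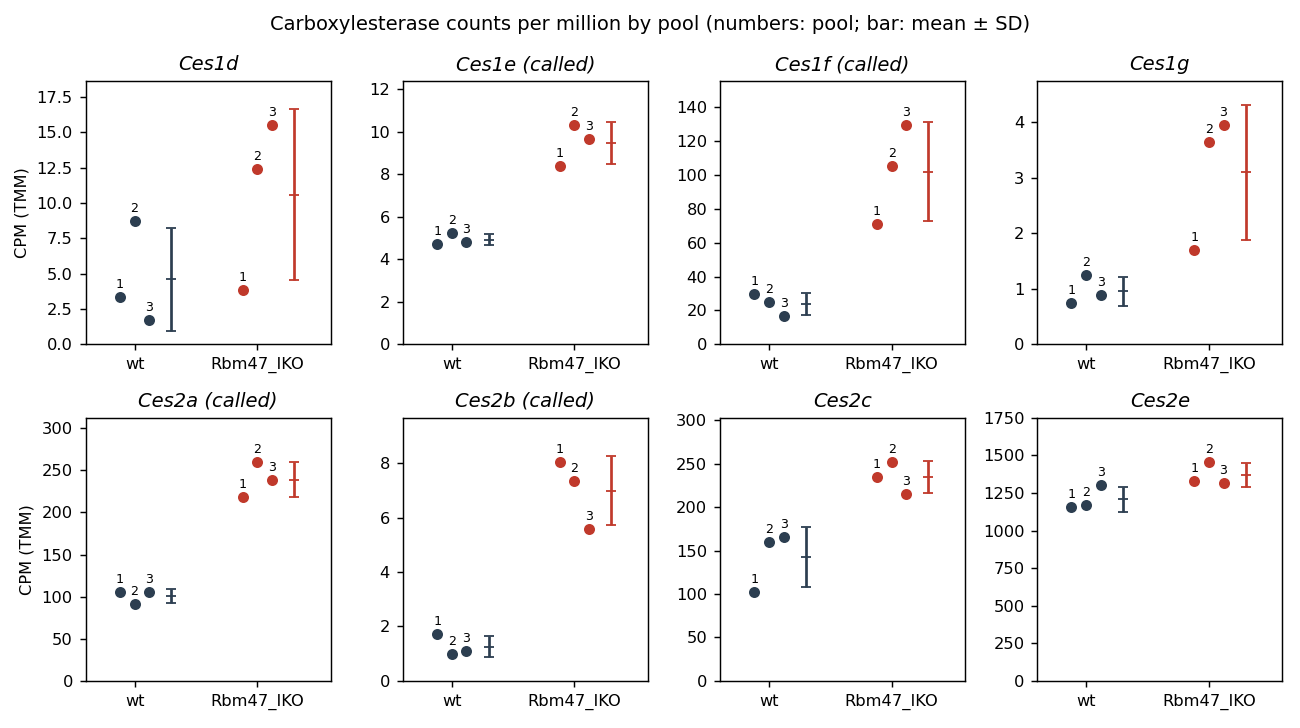
CPM of each carboxylesterase (vertical axes from 0, scaled per gene) in the 3 wt and 3 Rbm47_IKO pools, numbered by pool, with the mean and SD beside the points. The 2 genotypes are apart for every gene but Ces1d, by a narrow margin in Ces2e (1302 and 1316 CPM) and a wide one in Ces2a and Ces2b.

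Ces2a, an acylglycerol and drug ester hydrolase of the intestine and liver, gave the member result with the smallest error. It had 218.4, 260.4 and 238.0 CPM in the pools labelled Rbm47_IKO and 105.4, 91.3 and 105.8 CPM in the wt pools. The groups were far apart, and the pools of each genotype lay close together. The log2 fold change was 1.24 (SE 0.12, 95% confidence interval 0.97 to 1.52, edgeR adjusted p = 0.00854). By p, Ces2a ranked 14 among the 16425 genes. It was not called without Rbm47_IKO pool 2 (edgeR adjusted p = 0.0652) or without wt pool 3 (edgeR adjusted p = 0.0504).

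Ces2b had the largest fold change of the members, at a low level. Its CPM was 8.06, 7.34 and 5.57 in the pools labelled Rbm47_IKO, from 279, 278 and 182 counts, and 1.71, 0.975 and 1.10 in the wt pools, from 58, 37 and 40 counts. No pools overlapped, and the log2 fold change was 2.47 (SE 0.29, 95% confidence interval 1.79 to 3.15, edgeR adjusted p = 0.0102). Ces2b was not called without Rbm47_IKO pool 1 (edgeR adjusted p = 0.0651) or without Rbm47_IKO pool 2 (edgeR adjusted p = 0.0834). Nor was it called without wt pool 3 (edgeR adjusted p = 0.0621).

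Ces2c, which hydrolyses acylglycerols in the small intestine, had 234.8, 252.3 and 215.5 CPM in the pools labelled Rbm47_IKO and 102.8, 159.3 and 165.2 CPM in the wt pools. The groups did not overlap, but wt pool 1 lay well below the other 2 wt pools. Its log2 fold change of 0.72 (SE 0.19, 95% confidence interval 0.28 to 1.15) did not pass the threshold (edgeR adjusted p = 0.0962).

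Ces2e, an intestinal carboxylesterase also known to cleave pyrethroid esters, was by far the most abundant member. Its CPM was 1332, 1458 and 1316 in the pools labelled Rbm47_IKO and 1155, 1167 and 1302 in the wt pools. The highest wt pool almost reached the lowest Rbm47_IKO pool. Its log2 fold change of 0.18 (SE 0.12, 95% confidence interval -0.09 to 0.46, edgeR adjusted p = 0.522) did not pass the test. The interval leaves room for a slight fall, no change or a rise of up to 0.46 on the log2 scale.

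Ces1f, a relative of the triacylglycerol hydrolase Ces1d, showed the largest difference in family 1. It had 71.0, 105.3 and 129.6 CPM in the pools labelled Rbm47_IKO and 29.5, 24.7 and 16.9 CPM in the wt pools. Even the lowest Rbm47_IKO pool exceeded every wt pool, although values within each genotype spread more than for Ces2a. The log2 fold change was 2.11 (SE 0.27, 95% confidence interval 1.47 to 2.74, edgeR adjusted p = 0.0134). The call was lost with a block for the replicate number (edgeR adjusted p = 0.066). It was also lost without Rbm47_IKO pool 2 (edgeR adjusted p = 0.0834) and without wt pool 3 (edgeR adjusted p = 0.0578).

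Ces1e, known as the egasyn that holds beta-glucuronidase in the endoplasmic reticulum, had 8.41, 10.3 and 9.68 CPM in the pools labelled Rbm47_IKO and 4.73, 5.22 and 4.80 CPM in the wt pools. Pools of one genotype lay close together and the genotypes did not overlap. A log2 fold change of 0.94 (SE 0.16, 95% confidence interval 0.57 to 1.32, edgeR adjusted p = 0.0316) passed the threshold with all 6 pools but not without the 2 pools rich in smooth muscle RNA (0.97, adjusted p = 0.0651 in the same test). The call was also lost with the replicate block (edgeR adjusted p = 0.0749) and in 5 of 6 fits that left out 1 pool, all but that without wt pool 2 (highest edgeR adjusted p = 0.211).

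Ces1g, a carboxylesterase best known for its part in liver lipid metabolism, was scarce in all pools, with 59, 138 and 129 counts in those labelled Rbm47_IKO and 25, 47 and 32 counts in the wt pools. In CPM these were 1.70, 3.64 and 3.95 against 0.735, 1.24 and 0.878. The groups did not overlap, and Rbm47_IKO pool 1 was nearest to the wt pools. The log2 fold change of 1.70 (SE 0.40, 95% confidence interval 0.78 to 2.62) did not pass the threshold (edgeR adjusted p = 0.0712).

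Ces1d, the triacylglycerol hydrolase of liver and adipose tissue, was the one member whose genotypes overlapped. It had 3.84, 12.4 and 15.5 CPM in the pools labelled Rbm47_IKO and 3.35, 8.72 and 1.70 CPM in the wt pools. Rbm47_IKO pool 1 lay below wt pool 2. The log2 fold change of 1.20 had a large error (SE 0.66, 95% confidence interval -0.34 to 2.75, edgeR adjusted p = 0.43).

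Adipocyte genes moved with the pools of Ces1d. The summed level of Adipoq, Plin1, Lep, Cfd, Retn and Car3 was 4.27, 60.6 and 49.5 CPM in the pools labelled Rbm47_IKO and 21.1, 36.9 and 4.25 CPM in the wt pools. The 2 pools with the most adipocyte RNA also had the most Ces1d, Ces1e, Ces1f, Ces1g and Ces2a, and the most Ces2g and Aadac, which are described further on, but not the most Ces2b, Ces2c and Ces2e. In Rbm47_IKO pool 1, with 4.27 CPM of adipocyte genes, Ces1f was at 71.0 CPM, above wt pool 2 at 24.7 CPM with 36.9 CPM of adipocyte genes. Lep was below the filter on low counts, and none of the other 5 adipocyte genes was called by edgeR or DESeq2 or had an unadjusted edgeR p under 0.05. The part of adipocyte RNA in any of these values was not tested.

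**Figure D2:**
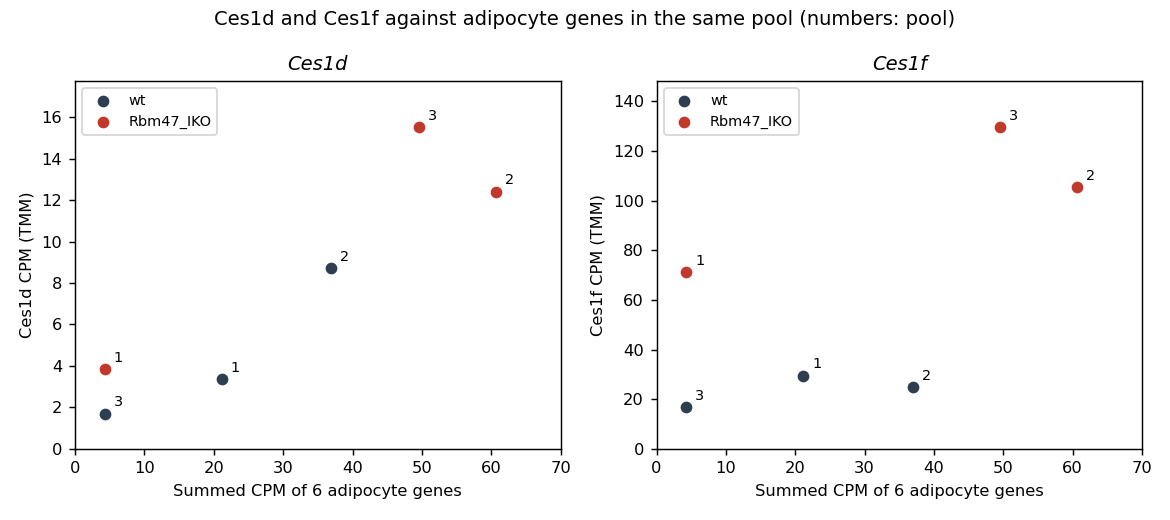
CPM of Ces1d (left) and Ces1f (right) on the vertical axes against the summed CPM of 6 adipocyte genes on the horizontal axes, 1 numbered point per pool, coloured by genotype. Ces1d was highest in the pools with more adipocyte RNA in either genotype, and Ces1f was highest in Rbm47_IKO pools 2 and 3, at 60.6 and 49.5 CPM of adipocyte genes, and next in Rbm47_IKO pool 1, at 4.27 CPM.

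Summed levels of goblet and ileal genes were also apart between the genotypes, with no gene of either list called by edgeR. DESeq2 called 2 of the 6 genes in each list, against 7.57% of all genes tested. The 6 goblet cell genes summed to 22014 to 25461 CPM in the pools labelled Rbm47_IKO and 16511 to 19320 CPM in the wt pools. The 6 ileal genes summed to 505.8 to 666.5 CPM and 342.1 to 488.1 CPM. The pools did not overlap for 2 goblet genes (Clca1 and Fcgbp) and 2 ileal genes (Fabp6 and Slc51a), higher in those labelled Rbm47_IKO. That arrangement was found in 11.7% of all genes tested. Spink4 (log2 fold change -0.28) and Slc10a2 (-0.47) had values below 0. Most of each sum came from 1 gene, Fcgbp with 10374 to 15215 CPM and Slc51a with 259.0 to 479.7 CPM over all pools. Genes of the proximal small intestine overlapped between genotypes, with 5217 to 6464 CPM and 4462 to 5981 CPM. The part of the cell and segment composition of the scrapings in the carboxylesterase levels was not tested. Without Rbm47_IKO pool 3 and wt pool 2, edgeR called Ces1f (log2 fold change 1.92), Ces2a (1.17) and Ces2b (2.45), and Ces1d, which was not called, had a log2 fold change of 1.69.

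Levels of different members were compared per length. In the pools labelled Rbm47_IKO, Ces2e was highest with 507.1 ± 29.0 RPKM (SD, n = 3), followed by Ces2c with 118.9 ± 9.34, Ces2a with 101.3 ± 8.90 and Ces1f with 31.05 ± 8.96 RPKM. Ces1d with 4.47 ± 2.55, Ces1e with 4.33 ± 0.446, Ces2b with 2.05 ± 0.375 and Ces1g with 1.30 ± 0.510 RPKM came last. Neighbours in this order overlapped between Ces2c and Ces2a, between Ces1d and Ces1e, and between Ces2b and Ces1g.

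In the wt pools the order was Ces2e with 447.5 ± 30.4 RPKM (SD, n = 3), Ces2c with 72.3 ± 17.5, Ces2a with 42.7 ± 3.50 and Ces1f with 7.22 ± 1.94 RPKM. Below them were Ces1e with 2.25 ± 0.119, Ces1d with 1.94 ± 1.55, Ces1g with 0.398 ± 0.109 and Ces2b with 0.370 ± 0.115 RPKM. The wt pools of Ces1e overlapped those of Ces1d, and the wt pools of Ces1g overlapped those of Ces2b. The 4 most abundant members thus had the same order of means in both genotypes, with Ces2c and Ces2a apart in wt pools and overlapping in those labelled Rbm47_IKO.

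The make-up of family 2 differed between the genotypes. Ces2e supplied 69.7%, 69.2% and 69.7% of the summed RPKM of the 4 family 2 members in the pools labelled Rbm47_IKO and 81.5%, 78.3% and 78.9% in the wt pools. The Ces2a share was 13.1%, 14.1% and 14.4% against 8.51%, 7.01% and 7.33%. The Ces2c share was 16.8%, 16.4% and 15.6% against 9.94%, 14.6% and 13.7%. None of these 3 shares overlapped between genotypes. The share of Ces2e was lower although its own level was not, with 1316 to 1458 CPM in the pools labelled Rbm47_IKO and 1155 to 1302 CPM in the wt pools. The ratio of Ces2e to Ces2a in RPKM was 5.33, 4.90 and 4.83 in the pools labelled Rbm47_IKO and 9.57, 11.2 and 10.8 in the wt pools.

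In family 1, Ces1f supplied 77.8%, 73.6% and 75.8% of the summed RPKM of the 4 members in the pools labelled Rbm47_IKO and 69.8%, 53.4% and 61.0% in the wt pools. The Ces1e share was lower in every Rbm47_IKO pool, with 13.8%, 10.8% and 8.49% against 16.8%, 16.9% and 26.1%, although its own level was higher. The shares of Ces1d and Ces1g overlapped between genotypes.

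**Figure D3:**
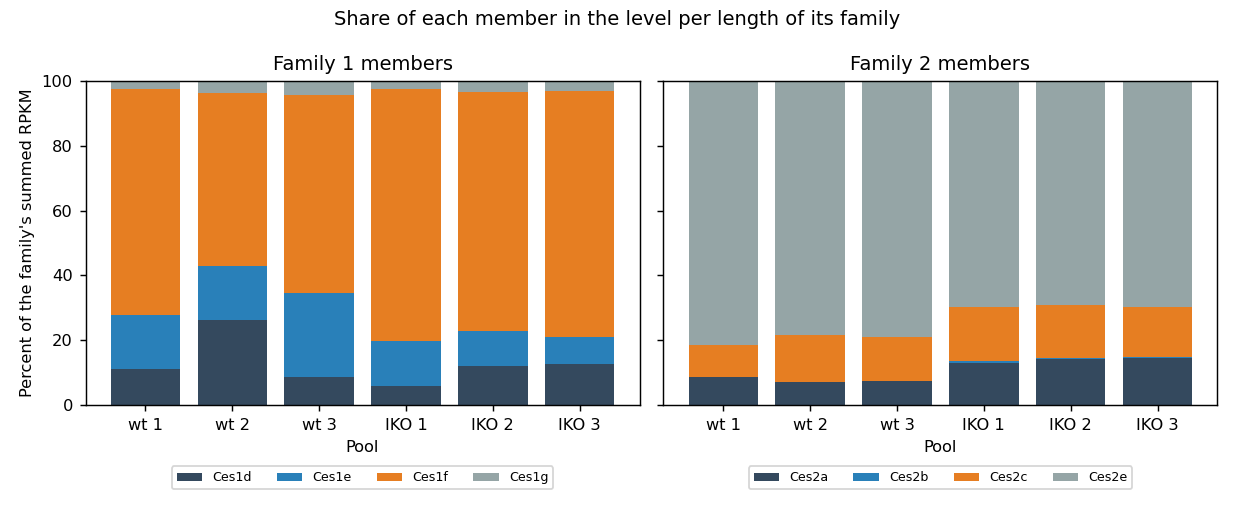
Percent of the summed RPKM of the 4 family 1 members (left) and the 4 family 2 members (right) that each gene supplied, 1 stacked bar per pool. Ces2e takes 78.3% to 81.5% of family 2 in wt pools and 69.2% to 69.7% in Rbm47_IKO pools, although its own level is not lower there. Ces2b is too scarce to be seen on this scale.

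Sums over a family do not depend on how reads were split among the listed copies. They still depend on the treatment of reads shared with genes outside the sum, such as Ces2d-ps and Gm7208, which was not given. The 4 family 1 members summed to 85.0, 131.7 and 158.8 CPM in the pools labelled Rbm47_IKO and 38.3, 39.9 and 24.3 CPM in the wt pools, a ratio of means of 3.66. The 4 family 2 members summed to 1793, 1978 and 1775 CPM against 1364, 1418 and 1574 CPM, a ratio of 1.27. Without Ces2e the family 2 sum was 461.3, 520.0 and 459.1 CPM against 209.9, 251.6 and 272.1 CPM, a ratio of 1.96. None of the 3 sums overlapped between genotypes, and no test was made on them.

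Beyond the 8 members, 5 of the 12 other Ces genes passed the filter on low counts. Ces2g, which lies beyond Ces2e on chromosome 8 (104961718 to 104969537), was the only one that edgeR called, with 31.3, 43.0 and 52.8 CPM in the pools labelled Rbm47_IKO and 4.79, 13.9 and 10.5 CPM in the wt pools. The groups did not overlap, and the log2 fold change was 2.12 (SE 0.37, edgeR adjusted p = 0.034). The Ces2g call was lost in the robust fit (edgeR adjusted p = 0.0609) and held in 2 of 6 fits that left out 1 pool. Ces1c, a carboxylesterase secreted to plasma, had a log2 fold change of 0.98 (SE 0.31, edgeR adjusted p = 0.153), and Ces3a of 0.63 and Ces2h of -0.02 had edgeR adjusted p of 0.543 and 0.992. Ces3b had 2, 9 and 3 counts in the pools labelled Rbm47_IKO and 39, 18 and 19 counts in the wt pools, a log2 fold change of -2.41 (SE 0.62, edgeR adjusted p = 0.0952). It was the one Ces gene whose Rbm47_IKO pools all lay below the wt pools. Ces1b, Ces2d-ps and Ces2f were below the filter, and Ces1a, Ces1h, Ces4a and Ces5a had 0 counts in every pool.

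**Figure D4:**
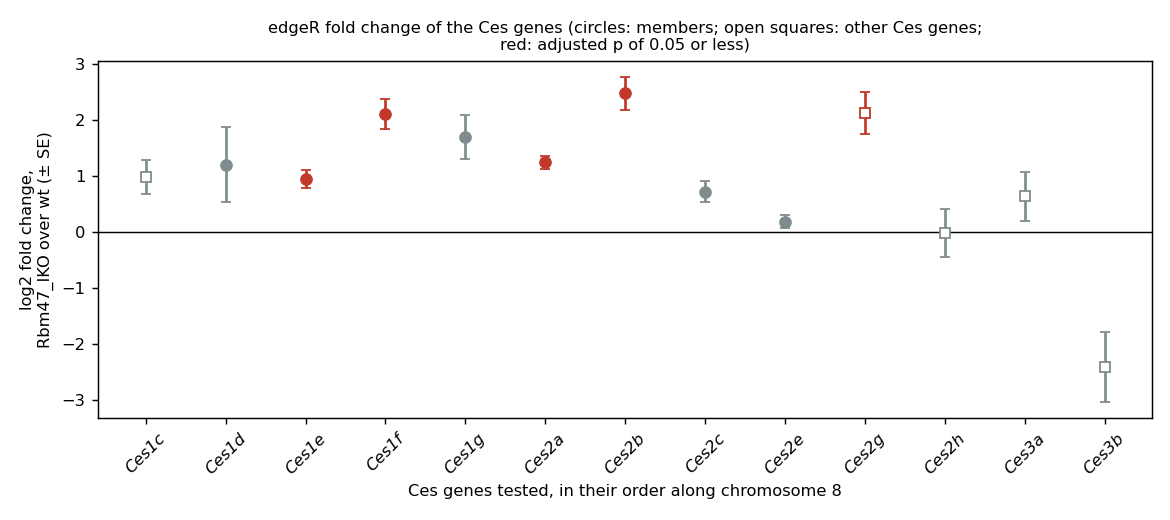
Log2 fold change, Rbm47_IKO over wt, with its SE from edgeR for the 13 Ces genes tested, in their order along chromosome 8. The 8 members (circles) are all above 0 and 5 Ces genes are called higher (red), among them Ces2g (open square), while Ces3b lies at -2.41.

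For the member of each family with the highest mean CPM, the genes with the most similar pattern were found by Pearson's r of log2 CPM over the 6 pools, as a description. Those most like Ces1f were Sufu (r = 0.999), Slitrk6 (r = 0.996) and Mpzl1 (r = 0.995), of which Mpzl1 was called higher (log2 fold change 1.08, edgeR adjusted p = 0.0323). Mpzl1 was not called without the 2 muscle-rich pools (log2 fold change 0.97, edgeR adjusted p = 0.0709), with the replicate block (edgeR adjusted p = 0.089) or in 5 of 6 fits that left out 1 pool. Those most like Ces2e were Exoc3l4 (r = 0.991), the peptide transporter gene Slc15a1 (r = 0.986) and Pcdh1 (r = 0.986), none of them called. The 6 pools share their genotype split, so that any pair of genes that differ between genotypes correlates.

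Upstream sequences were available in the RefSeq promoter table for 5 of the 8 members (Ces1e, Ces1g, Ces2a, Ces2c and Ces2e). The 250 bases before the start of Ces2a, which rose, and of Ces2e, which was not called, are shown on build GRCm38.p6. Capitals mark matches, on either strand, to CAAAG, the core of a site for the enterocyte factor HNF4, and to AGGTCA, a motif of nuclear receptors.
Ces2a, chr8:104733753-104734002, + strand: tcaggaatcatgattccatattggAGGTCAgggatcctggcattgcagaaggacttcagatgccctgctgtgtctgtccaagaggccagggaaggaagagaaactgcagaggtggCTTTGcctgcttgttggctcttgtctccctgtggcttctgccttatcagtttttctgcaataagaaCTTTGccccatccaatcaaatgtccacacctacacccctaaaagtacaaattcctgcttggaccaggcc
Ces2e, chr8:104926010-104926259, + strand: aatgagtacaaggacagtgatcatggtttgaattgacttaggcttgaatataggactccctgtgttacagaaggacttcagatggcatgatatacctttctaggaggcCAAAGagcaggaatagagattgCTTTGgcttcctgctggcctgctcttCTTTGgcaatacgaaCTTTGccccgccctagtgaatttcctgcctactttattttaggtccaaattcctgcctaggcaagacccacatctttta
CAAAG was found in 4 of the 5 promoters, all but that of Ces2c, and in 48.6% of 32851 promoters of the same length. The window of Ces2a held 2 matches and that of Ces2e held 4. AGGTCA was found in that of Ces2a alone among the 5 and in 14% of all promoters. TATAAA, the TATA box motif, was found in that of Ces1g alone, on the strand opposite to the gene, and in 12.4% of all. The fuller HNF4 type site CAAAGTCCA, the HNF1 motif GTTAAT and the antioxidant response core TGACNNNGC were in none of the 5 windows, against 0.4%, 6.4% and 10.2% of all promoters. A match is a description of letters only.

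Other genes of ester and lipid handling were called in both directions. Of 18 other esterases and lipases, edgeR called 1 higher and 2 lower, and their median log2 fold change was -0.02. DESeq2 called 4 of them and limma-voom 2. Over all genes tested, edgeR called 2.70%, DESeq2 7.57% and limma-voom 431 of 16425. Aadac, the arylacetamide deacetylase of the endoplasmic reticulum whose substrates overlap with those of carboxylesterases, rose from 21.4, 40.0 and 28.5 CPM in the wt pools to 88.4, 99.9 and 116.9 CPM in those labelled Rbm47_IKO (log2 fold change 1.76, SE 0.23, edgeR adjusted p = 0.0139). Pnpla8, a calcium-independent phospholipase, fell (log2 fold change -1.02, edgeR adjusted p = 0.011), and so did Bche, butyrylcholinesterase (-1.24, edgeR adjusted p = 0.0479). The Bche result was close to the threshold and was not called without the 2 muscle-rich pools (log2 fold change -1.37, edgeR adjusted p = 0.059) or by limma-voom. Nor was it called with RLE in place of TMM scaling (edgeR adjusted p = 0.0516), with the replicate block or in 5 of 6 fits that left out 1 pool. Of 15 genes of triglyceride droplets and fatty acid handling, edgeR called 1, the fatty acid transporter gene Cd36 (log2 fold change -1.57, edgeR adjusted p = 0.0095), with 36.5 to 49.7 CPM in the pools labelled Rbm47_IKO and 108.1 to 157.9 CPM in the wt pools. DESeq2 called 4 genes of that list and limma-voom 2. Apob, the structural protein of chylomicrons, named here after its values were seen, missed the edgeR threshold (log2 fold change -0.87, edgeR adjusted p = 0.0583) and was called by DESeq2 (adjusted p = 1.8e-05) and limma-voom (adjusted p = 0.0421). The median of that list was 0.12.

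Of 16 other xenobiotic phase 1 enzymes, edgeR called 2 higher and 1 lower, and their median log2 fold change was 0.18. In this list 9 genes had an unadjusted edgeR p under 0.05 and DESeq2 called 9, against 16.8% and 7.57% of all genes tested. The quinone reductase Nqo1 rose (log2 fold change 1.55, edgeR adjusted p = 0.0119), as did the carbonyl reductase Cbr3 (2.11, edgeR adjusted p = 0.043) at 1.53 to 2.96 CPM against 0.353 to 0.632 CPM. The soluble epoxide hydrolase Ephx2 fell (log2 fold change -0.76, edgeR adjusted p = 0.0198). Its call was lost without the 2 muscle-rich pools (log2 fold change -0.79, edgeR adjusted p = 0.0582). The calls of Aadac, Pnpla8, Cd36, Cbr3 and Nqo1 held without these 2 pools, although Cbr3 was not called by limma-voom, with the replicate block or in 5 of 6 fits that left out 1 pool. Without Rbm47_IKO pool 1, without Rbm47_IKO pool 2 and without wt pool 3, edgeR called 0 genes of the 4 lists. Among 14 regulators known for carboxylesterase or enterocyte genes edgeR called 0, while 8 had an unadjusted edgeR p under 0.05, against 16.8% of all genes tested, DESeq2 called 2 and limma-voom called 0. The lowest adjusted p in that list belonged to the intestinal homeobox gene Cdx2 (log2 fold change 0.56, edgeR adjusted p = 0.0835) and to Nr1i2, which encodes the xenobiotic receptor PXR (-0.55, edgeR adjusted p = 0.153).

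**Figure D5:**
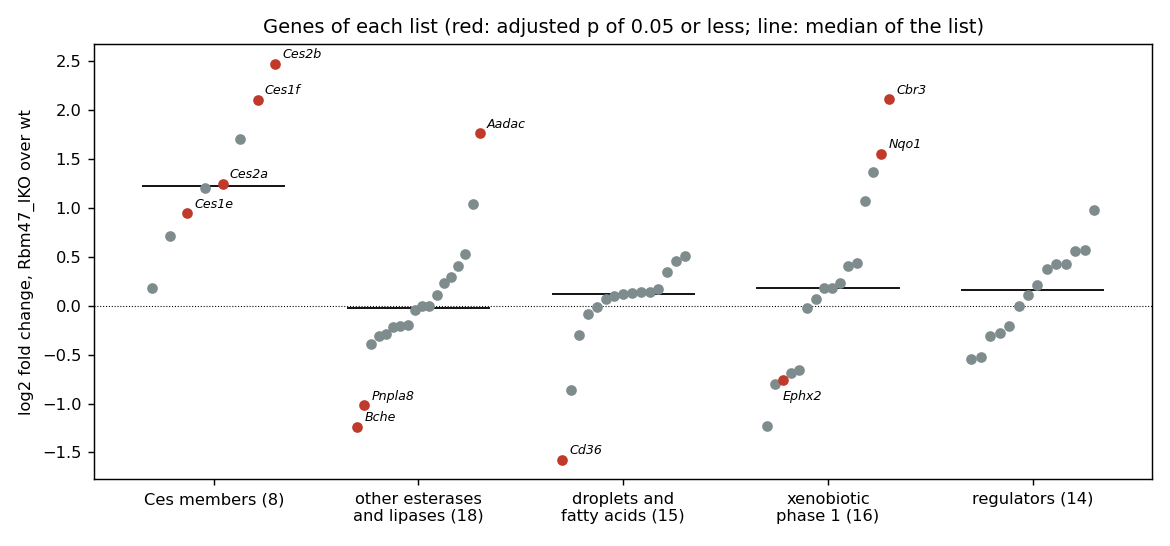
Log2 fold change, Rbm47_IKO over wt, of each gene in the 5 lists, 1 point per gene, ordered within a list, with the list's median as a line and genes called by edgeR in red with their names. The members' median is 1.22, and the medians of the other 4 lists lie between -0.02 and 0.18.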

How the data were processed

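The mucosal RNA pools, 3 per genotype, were assigned by the genotype that each label gives. The authors deposited, for each pool, a table of the counts per Ensembl gene, not normalized, with the gene length. The authors' CPM and RPKM columns in these tables were not used. Per the labels' processing notes, STAR 2.5.1a, Subread and featureCounts 1.4.6-p5 were named, with build GRCm38. Use of strand and of reads with several matches is not given in the sources used here. Symbols came from GENCODE M21 for 36639 of 38561 genes.

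Genes past filterByExpr (16425) were scaled by TMM and compared by the edgeR 4.0.16 quasi-likelihood test in R 4.3.3 (Benjamini-Hochberg adjusted p of 0.05 or less, the study's threshold). DESeq2 1.42.0, limma 3.58.1 (voom), other scalings and filters, a replicate block and leaving out each pool were alternatives, and leaving out the 2 muscle-rich pools was added after seeing the data. With 3 pools against 3, no exact permutation p is below 0.1, and single values got none. Similarity used log2 CPM with a prior count of 2. Genes named were Rbm47, all Ces genes, called genes of each list (or the 2 with the lowest adjusted p) and the 3 genes most like the leading member of each family. Apob and some marker genes were named after their values were seen. The members and lists were chosen with earlier results of these data known. No pools were identical.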

Additional observations from a re-analysis of the deposited data

How the results depend on the processing

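The 8 members kept the direction of their log2 fold changes in every alternative fit. The number called was 4 in most fits and 6 with DESeq2, fell to 2 (Ces2a and Ces2b) with a replicate block, and ranged from 0 to 4 when pools were left out in turn. It was 0 without Rbm47_IKO pool 2 and 0 without wt pool 3, with 6 members at an unadjusted edgeR p under 0.05 in each, 2 (Ces1f and Ces2a) without Rbm47_IKO pool 1, and 3 (Ces1f, Ces2a and Ces2b) without Rbm47_IKO pool 3, without wt pool 1 and without the 2 muscle-rich pools. With pools left out in turn, log2 fold changes ranged from 1.18 to 1.30 for Ces2a, 1.90 to 2.31 for Ces1f, 2.32 to 2.75 for Ces2b, 0.88 to 1.02 for Ces1e and 0.81 to 2.07 for Ces1d. Ces2g was called in 2 of those 6 fits.

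Over all genes, 443 calls became 1243 with DESeq2, 614 without TMM scaling, 100 with the replicate block and 0 to 431 with pools left out in turn. The number was 0 without Rbm47_IKO pool 2, where 1729 genes had an unadjusted edgeR p under 0.05, and 11 without wt pool 3, where 2203 did. Calls in the 4 pathway lists numbered 7, and became 19 with DESeq2, 11 without TMM scaling and 0 to 10 with pools left out in turn. The cause of these differences was not tested. Pools that share a number correlated in their deviations from the group mean by 0.41, -0.0026 and -0.28, so the numbers were not taken as a pairing. For 30 single genes (Rbm47, the Ces genes tested, the genes of the pathway lists that the text names and the genes of similar pattern), 396 values kept direction and side of the threshold, 15 gained a call, 61 lost one and 3 changed sign. These 3 were of Ces2h, which was not called in any fit and ranged from -0.26 to 0.26 with pools left out in turn. Marker genes are not counted here, except those that are also in a pathway list. Over these genes and all genes of the pathway lists together, 41 values of 13 genes changed sign, with 0 of them called in either fit. Bche was called in 1 and Ephx2 in 2 of the 6 fits that left out 1 pool, and neither with the replicate block. Depth limits Ces1g and Ces2b, with 25 to 58 counts in wt pools, and reads are not independent molecules.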
